A study of Arabidopsis thaliana with 12 samples.

Results

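PSBY, PSB27 and PSBW are 3 nuclear genes of Arabidopsis thaliana whose products belong to or help to build photosystem II, and each was read by 1 of the 3439 probes of the array. They were taken by probe number (2030 for PSBY, AT1G67740; 2306 for PSB27, AT1G03600; 3529 for PSBW, AT2G30570), and each of these probes names 1 gene in the platform annotation. Total RNA was compared between WT plants of ecotype Columbia 0 and the mak3 mutant in the same ecotype, on 6 arrays for each genotype. Per the labels the mutant is defective in a cytoplasmic enzyme that acetylates proteins, and the question is how transcript levels in such plants compare with those of WT. Arrays 1-2, 3-4 and 5-6 of a genotype were treated as repeat readings of 1 sample, which leaves 3 samples for each genotype. No source used here states the allele, tissue, plant age or growth conditions. No label says that the 3 samples came from separate plants, so the p-values reflect only how these samples vary, which may be technical. The transcript of MAK3 itself was not analysed here, so the labels have no check of that kind.

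Photosystem II is the thylakoid complex that uses light to take electrons from water. Its core is surrounded by small subunits with a single membrane span, and it is built and repaired stepwise with the help of factors that are absent from the finished complex. PSBY encodes a precursor that is cut into a pair of small membrane peptides, which sit beside cytochrome b559. PSBW encodes a small membrane subunit that helps to hold together the large assemblies of photosystem II and its antenna. PSB27 encodes a factor of the thylakoid lumen that binds assembly intermediates of photosystem II and acts in the repair of photodamaged centres. All 3 proteins are made in the cytoplasm and imported into the chloroplast, and acetylation by the MAK3 enzyme takes place in the cytoplasm.

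The data showed a bright PSBW probe, a moderately bright PSBY probe and a PSB27 probe somewhat below it, except in mak3 pair 3-4. In that sample PSB27 stood above PSBY (1.92 against 1.35 as deposited). None of these genes passed the test between genotypes. In mak3, PSB27 stood above WT in pairs 3-4 and 5-6 and slightly below it in pair 1-2. PSBY and PSBW differed between genotypes in directions that changed from pair to pair. As deposited, the PSBW level differed far more between the pairs than between the genotypes (not so in mak3 after quantile normalization). With limma and Benjamini-Hochberg adjustment over all probes, 0 of the 3 members were called at an adjusted p under 0.05, against 0 of 3439 probes (0% of the array) and against 134 probes (3.9%) at an unadjusted p under 0.05, none of them a member. In RNA of whole samples, fewer green cells and less of a transcript in each cell cannot be told apart. Each gene has 1 probe, so no second probe checks its values. In no member did the 3 samples of mak3 lie wholly above or below those of WT, as they did for 3.2% and 4.07% of all probes. No member had the same direction in all 3 pairs, where 16.3% of all probes were higher in mak3 throughout and 20.2% lower.

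Levels are given first as deposited, in linear intensities whose scale is unknown and whose mean is near 1 on every array. PSBW was at 14.3 and 14.3 on WT arrays 1 and 2, at 23.2 and 24.8 on arrays 3 and 4, and at 31.6 and 31.9 on arrays 5 and 6. In mak3 it was at 15.6 and 15.7 on arrays 1 and 2, at 20.4 and 20.8 on arrays 3 and 4, and at 33.6 and 32.0 on arrays 5 and 6. Both genotypes thus had their lowest sample in pair 1-2 and their highest in pair 5-6, and the values of the genotypes overlapped. The sample of pair 5-6 was 2.22 times that of pair 1-2 in WT and 2.10 times in mak3, while the mak3 sample was 1.09, 0.856 and 1.03 times the WT sample in pairs 1-2, 3-4 and 5-6. This rise from pair 1-2 to 3-4 to 5-6 in both genotypes, as deposited, was seen for 7.82% of all probes. Taken singly, 30.8% of probes rose so in WT and 10.7% in mak3. After quantile normalization, 13.7% of probes rose in both genotypes, and PSBW was then level between pairs 1-2 and 3-4 in mak3.

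PSBY was at 1.77 and 1.92 on WT arrays 1 and 2, at 1.54 and 1.61 on arrays 3 and 4, and at 1.46 and 1.47 on arrays 5 and 6. In mak3 it was at 2.45 and 2.79 on arrays 1 and 2, at 1.34 and 1.35 on arrays 3 and 4, and at 1.45 and 1.56 on arrays 5 and 6. The mak3 sample of pair 1-2 stood above every other sample, and the other 5 samples lay between 1.35 and 1.84 on average. As deposited, PSBY was thus highest in the pair where PSBW was lowest, in both genotypes. After quantile normalization, 25.4% of all probes were highest in pair 1-2 in both genotypes, so a peak in that pair is frequent on these arrays. This share counts single probes and not opposite patterns of 2 probes.

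PSB27 was at 0.922 and 0.965 on WT arrays 1 and 2, at 1.17 and 1.24 on arrays 3 and 4, and at 1.02 and 1.10 on arrays 5 and 6. In mak3 it was at 0.953 and 0.896 on arrays 1 and 2, at 1.85 and 1.98 on arrays 3 and 4, and at 1.34 and 1.29 on arrays 5 and 6. The mak3 samples of pairs 3-4 and 5-6 were above all WT samples, and the mak3 sample of pair 1-2 was below them, so the genotypes overlapped. Pair 3-4 held the highest sample and pair 1-2 the lowest in both genotypes. After quantile normalization, 12.1% of all probes were highest in pair 3-4 in both genotypes, and 25.0% were lowest in pair 1-2 in both.

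**Figure D1:**
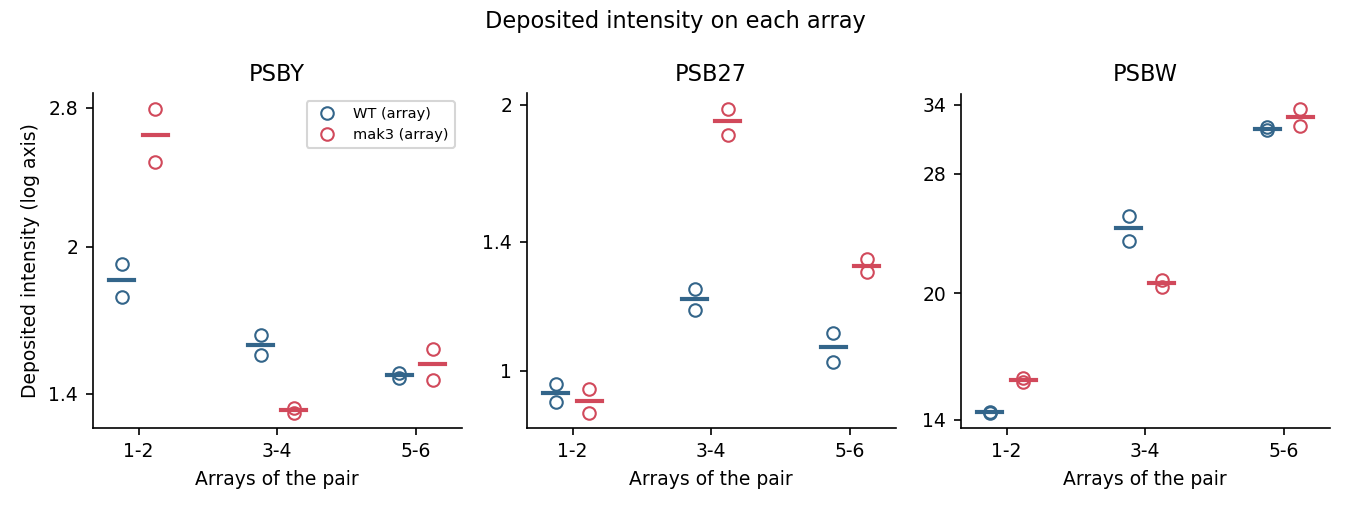
Deposited intensity (log axis, each panel with its own range) of PSBY, PSB27 and PSBW on each of the 12 arrays, by pair of arrays; circles are arrays, bars are the mean of the 2 repeat readings of a sample. PSBW separates by pair in both genotypes, from 14.3 to 33.6, and PSB27 separates by genotype in pairs 3-4 and 5-6 only.

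Repeat readings lay close together. The 2 arrays of a sample differed by 1.07% to 13.0% of their mean for PSBY, by 3.42% to 7.76% for PSB27 and by 0.210% to 6.95% for PSBW, as deposited. The widest gap was that of PSBY in mak3 pair 1-2, its highest sample. The mak3 excess of PSB27, 1.59 times WT in pair 3-4 and 1.24 times in pair 5-6, was larger than these gaps, and its ratio of 0.980 in pair 1-2 was not. Repeat readings say nothing of the spread between plants, and only the 3 samples of a genotype enter the tests.

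The rank of a probe on its array does not depend on how the array was scaled, but it is a rank of probe brightness, which also depends on the probe, and not of transcript abundance. PSBW was between the 9th and the 17th brightest probe in WT and between the 11th and the 15th in mak3. As the mean over arrays, 99.6% of probes were dimmer than PSBW in both genotypes. PSBY was between rank 178 and rank 321 in WT and between rank 128 and rank 338 in mak3, with 92.5% of probes dimmer in WT and 92.9% in mak3. For PSB27, 82.6% of probes were dimmer in WT and 86.6% in mak3, and its rank went from 402 to 781 in WT and from 203 to 923 in mak3. When the genotype means of quantile-normalized values were ranked instead, which does depend on the scaling, the percentages were higher, at 93.6 and 93.9 for PSBY and 85.0 and 90.2 for PSB27 in WT and mak3. PSB27 was the member whose rank ranged most widely: by sample, 78.3% to 87.8% of probes were dimmer in WT, and 75.3%, 94.0% and 91.0% in mak3 pairs 1-2, 3-4 and 5-6. A wider range of ranks is not a wider range of levels. In WT the quantile-normalized log2 SD over samples was 0.22 for PSB27, against 0.31 for PSBY and 0.44 for PSBW. In mak3 it was 0.60, against 0.51 and 0.15, where the 0.15 of PSBW rests on equal values that come from the normalization. As deposited, the log2 SD in mak3 was 0.53 for PSB27, 0.51 for PSBY and 0.54 for PSBW.

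**Figure D2:**
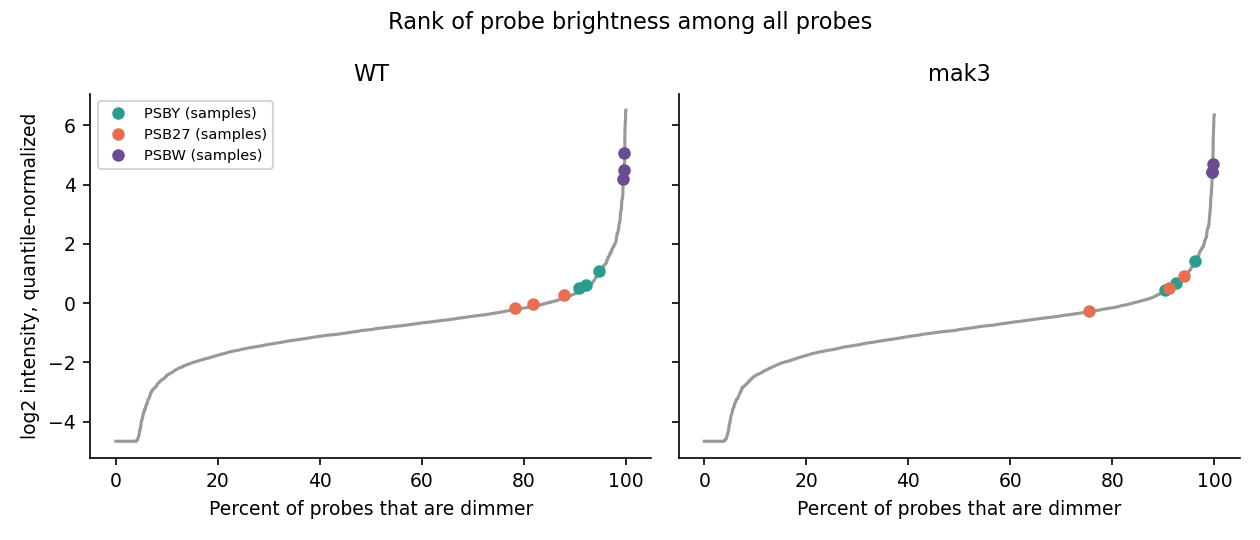
Quantile-normalized log2 intensity against the percent of probes that are dimmer, for WT and mak3; the grey line is the mean of all probes in order of brightness and the points are the 3 samples of each gene. PSBW sits at the bright end with 99.6% of probes dimmer, and PSB27 spreads over 75.3% to 94.0% in mak3.

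For the test the arrays were quantile-normalized, log2 was taken and repeat readings were averaged. The test set 3 samples against 3 and did not use the pairs. The PSB27 level was -0.17, 0.27 and -0.03 on the log2 scale in the WT samples of pairs 1-2, 3-4 and 5-6, and -0.27, 0.91 and 0.52 in the mak3 samples. The mak3 minus WT difference was therefore -0.10, 0.65 and 0.54 in the 3 pairs. Its mean was 0.36 ± 0.34 (SE, n = 3 against 3), with a 95% interval from -0.50 to 1.23 (limma adjusted p = 1). This interval holds no difference and allows a level in mak3 from 0.705 to 2.34 times that of WT. The exact two-sided permutation test of the 3 against 3 samples gave p = 0.4, where 0.1 is the smallest p it can give. Of all probes, 18.4% had a larger difference in either direction.

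The signs of the PSB27 differences across pairs were shared by many probes. The mak3 sample was below WT in pair 1-2 and above it in pairs 3-4 and 5-6 for 660 probes (19.2%). Whatever their sign in pair 1-2, 114 probes (3.31%) were above WT by at least PSB27's own differences in both pair 3-4 and pair 5-6. The probes with neighbouring numbers went the other way there: the running median of 51 probes around PSB27 was at -0.09, -0.26 and -0.16 in pairs 1-2, 3-4 and 5-6. A running median over 51 probes was also taken within each sample, of the deviations from the probe means. With that one taken off each sample, the PSB27 difference was 0.51 (limma adjusted p = 0.999). The mean rested on single samples: it was 0.70 without the mak3 sample of pair 1-2 (limma unadjusted p = 0.0288, adjusted p = 0.567) and 0.10 without the mak3 sample of pair 3-4 (adjusted p = 1). In mak3 the SD of PSB27 over samples was 0.60, larger than that of 86.2% of probes, and in WT it was 0.22, larger than that of 30.1%.

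The PSBY level was 1.08, 0.63 and 0.50 on the log2 scale in the WT samples of pairs 1-2, 3-4 and 5-6, and 1.41, 0.44 and 0.66 in the mak3 samples. The difference was 0.33, -0.18 and 0.17 in the pairs, so its sign was not the same throughout. The mean difference was 0.10 ± 0.31 (SE, n = 3 against 3), with a 95% interval from -0.70 to 0.91 (limma adjusted p = 1, exact permutation p = 0.8). It was -0.18 without the mak3 sample of pair 1-2, the sample in which PSBY was brightest. The interval, which does not use the pairs, allows a level in mak3 from 0.616 to 1.87 times that of WT. In the fit with pairs as a block the SE was 0.13 (limma adjusted p = 0.735).

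The PSBW level was 4.20, 4.50 and 5.06 on the log2 scale in the WT samples of pairs 1-2, 3-4 and 5-6, and 4.43, 4.43 and 4.68 in the mak3 samples. The equal values in mak3 come from the normalization: PSBW was the 15th brightest probe on mak3 arrays 1 to 4, and quantile normalization gives probes of equal rank the same value. As deposited, the SD over the 3 samples was 0.58 in WT and 0.54 in mak3. After quantile normalization it was 0.44 and 0.15. The mean difference was -0.07 ± 0.25 (SE, n = 3 against 3), with a 95% interval from -0.71 to 0.56 (limma adjusted p = 1, exact permutation p = 0.8). It was 0.15 without the WT sample of pair 5-6 and -0.27 without that of pair 1-2. On this scale the mak3 samples ranged over 0.26, and the differences between genotypes were 0.23, -0.07 and -0.38 in pairs 1-2, 3-4 and 5-6, so the range over the mak3 samples was smaller than the difference between genotypes in pair 5-6.

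The scaling of the arrays moved the differences of all 3 genes but made no call. As deposited PSB27 was at 0.32, PSBY at 0.11 and PSBW at -0.02, while the median over the whole array stood at -0.19. When all arrays were given the same median, PSB27 was at 0.54, PSBY at 0.33 and PSBW at 0.21, so the sign of PSBW depends on the scaling. The pair with the largest move was 5-6, where the median of the mak3 arrays was 0.420 and 0.421 against 0.605 and 0.605 in WT. In that pair PSBW was at -0.38 after quantile normalization, 0.05 as deposited and 0.57 after median scaling. For PSB27 the sign in each pair was the same under these 3 scalings.

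**Figure D3:**
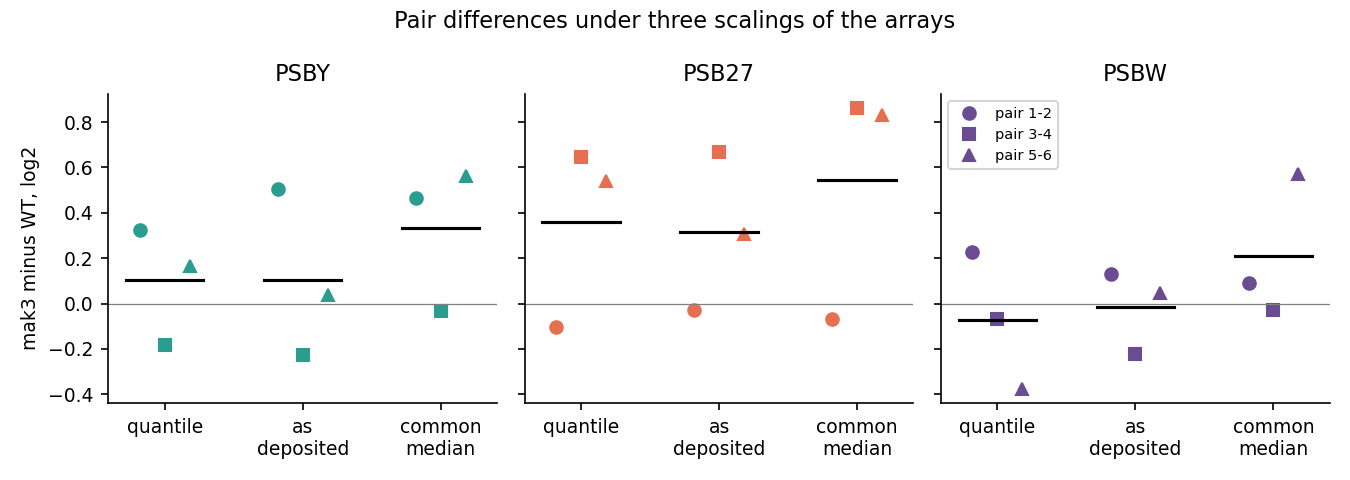
The mak3 minus WT difference on the log2 scale in each pair (points) and its mean (black bar) for the 3 genes, with the arrays quantile-normalized, as deposited and scaled to a common median. PSB27 keeps its sign in every pair, from -0.10 to 0.86, and PSBW in pair 5-6 goes from -0.38 to 0.57.

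A ratio of 2 probes on the same array is free of the array's scale, and its change between genotypes shows whether the genes differed unequally. The log2 ratio of PSB27 to PSBW differed between mak3 and WT by -0.16, 0.89 and 0.26 in pairs 1-2, 3-4 and 5-6, as deposited. That of PSB27 to PSBY differed by -0.54, 0.90 and 0.27. The ratio of PSBY to PSBW differed by 0.38 in pair 1-2 and by 0.00 and -0.01 in the other pairs. So, as deposited, PSBY and PSBW held nearly the same ratio in both genotypes in pairs 3-4 and 5-6, where PSB27 stood higher in mak3 relative to both. The quantile-normalized values do not keep this ratio: in pair 5-6 the difference was 0.17 for PSBY and -0.38 for PSBW, and in pair 3-4 it was -0.18 and -0.07. These are descriptions of 3 pairs, and no test was made of them.

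The members were set beside other genes of photosynthesis from lists of 103 genes, of which 10 probes were on the array, 9 with 1 gene. Of the 5 probes for photosystem II and its assembly, 2 were higher and 3 lower in mak3, with a median difference of -0.07, against a median of 0.00 over all probes. Over all 10 probes 3 were higher and 7 lower, with a median of -0.08, and of the whole array 46.8% were higher, 49.6% lower and 3.55% at exactly 0. With limma 0 of the 10 were called at an adjusted p under 0.05, and 0 had an unadjusted p under 0.05. Of these 10 probes, 4 were lowest in pair 1-2 in both genotypes (25.0% of all probes), and PSBW shared its lowest mak3 value between pairs 1-2 and 3-4. The 7 probes that are no members had a median of -0.20, with 1 higher and 6 lower.

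LPA19 (AT1G05385) encodes a homologue of PSB27 that acts in the processing of the D1 protein, the reaction-centre subunit with the fastest turnover. As deposited its WT samples were at 0.512, 1.03 and 0.897 and its mak3 samples at 0.457, 0.770 and 0.551 in pairs 1-2, 3-4 and 5-6. The mak3 sample was the lower in each pair, while the genotypes as a whole overlapped. After quantile normalization the differences were -0.18, -0.30 and -0.23, with a mean of -0.23 ± 0.39 (SE, n = 3 against 3; limma adjusted p = 1). The running medians of neighbouring probes were -0.04, -0.24 and -0.16, and 694 probes (20.2%) were lower in mak3 in all 3 pairs. In the fit with pairs as a block its SE was 0.05 (limma unadjusted p = 0.0207, adjusted p = 0.354). In that fit 458 of all 3439 probes had a limma unadjusted p under 0.05, and no adjusted p was below 0.354. The log2 ratio of PSB27 to LPA19 was higher in mak3 in each pair, by 0.13, 1.10 and 1.01, as deposited. This ratio was examined because both values had been seen, so it is a description only.

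AT1G54500 encodes a rubredoxin of the thylakoid that is needed for photosystem II accumulation. After quantile normalization its difference was 0.26, -0.09 and -0.40 in pairs 1-2, 3-4 and 5-6, with a mean of -0.08 ± 0.31 (SE, n = 3 against 3; limma adjusted p = 1). It was above WT in pair 1-2 and below it in the other pairs, a pattern of signs seen in 18.5% of all probes. PSBW had these signs after quantile normalization but not as deposited, where it was above WT in pair 5-6. LHB1B2, a light-harvesting protein that serves photosystem II, was at -0.69, -0.14 and -0.25 on the same scale. The probe that names LHCB4.1, LHCB4.2 and LHCB4.3, the minor antenna protein CP29, was at -0.31, -0.36 and 0.07. PSAN of photosystem I was at -0.77, -0.04 and -0.46. As deposited, LHB1B2 was above WT in pair 5-6 (13.4 against 13.0), PSAN was above it in pair 3-4 (4.62 against 4.43), and the CP29 probe was below it in pair 5-6 (1.26 against 1.37). In pair 1-2 these antenna and photosystem I probes stood below WT while PSBY and PSBW stood above it. Of the Calvin cycle enzymes, SBPASE was at -0.28, -0.07 and 0.09 (0.631 against 0.819 in pair 5-6 as deposited), and PRK was at -0.70, 0.38 and 0.41, so PRK shared the signs of PSB27 in each pair.

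**Figure D4:**
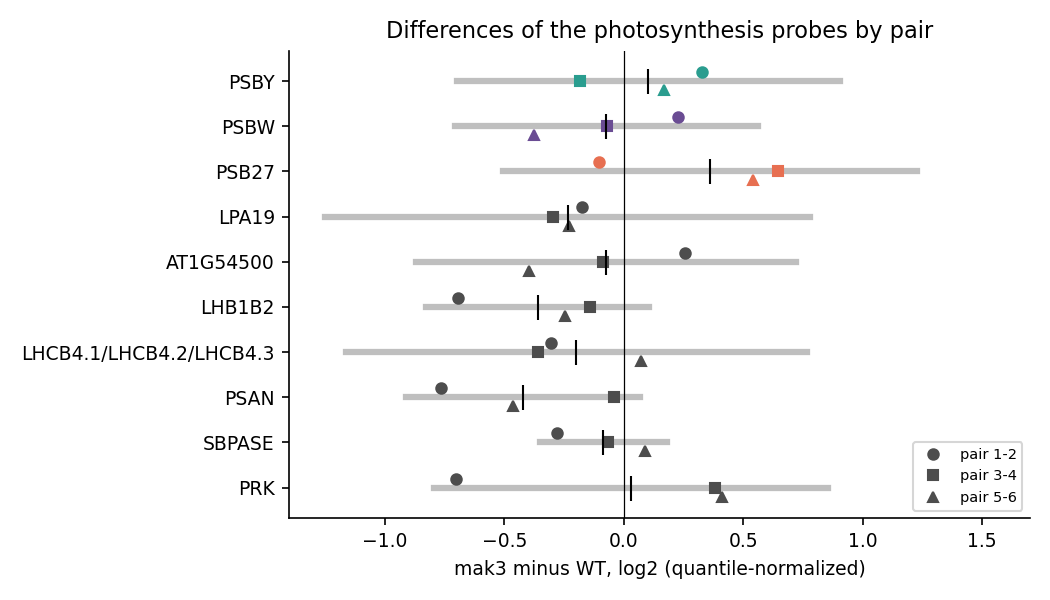
The mak3 minus WT difference on the log2 scale (quantile-normalized) of the 10 photosynthesis probes in pairs 1-2 (circles), 3-4 (squares) and 5-6 (triangles), with the mean (black tick) and the 95% interval of limma (grey bar). Every interval holds 0, and LPA19, LHB1B2 and PSAN are below 0 in all 3 pairs, of which LHB1B2 in pair 5-6 and PSAN in pair 3-4 are above WT as deposited.

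The 3 members were not among each other's nearest probes over the 6 samples. Likeness was the root mean square distance between quantile-normalized log2 profiles, each centred on its mean. It was taken among the other 646 probes that name 1 gene and are above 0 on all arrays. The PSBW profile holds the equal mak3 values that come from the normalization, so its distances depend on the scaling. The distance was 0.70 between PSBY and PSB27, 0.54 between PSBY and PSBW and 0.48 between PSB27 and PSBW. In order of distance from PSBY, PSBW came at place 440 and PSB27 at place 568. From PSB27, PSBW came at place 255 and PSBY at place 556, and from PSBW, PSB27 came at place 434 and PSBY at place 484. The nearest to PSBY were AT1G08050, which encodes a RING-type zinc finger protein, at 0.07, AT3G06870 at 0.09 and AT5G04600 at 0.11. The nearest to PSB27 were AT1G24240 at 0.17, AT4G21770 at 0.19 and AT1G04330 at 0.22. The nearest to PSBW were AT2G14660 at 0.10, the MADS-box gene AGL54 at 0.10 and AT1G30700, of the berberine bridge enzyme family, at 0.11. No gene of the photosynthesis lists was among these 9.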

How the data were processed

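Each array gave 1 intensity per probe in the authors' deposited value table. These deposited intensities are linear, hold exact zeros and reach an upper limit of 100, and no source used here states how the authors scanned, background-corrected and scaled them, so scale and centring stay unknown. The array medians ran from 0.420 to 0.605 (means 0.946 to 1.05), and 129 to 142 probes of an array were at 0. No background signal was at hand, and the number of arrays limits the precision.

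Quantile normalization used limma 3.58.1 (R 4.3.3). Values under the 1st percentile of positive values (0.0396) were set to it (166 probes of each array), log2 was taken and repeat readings were averaged. Across probes, the arrays of 1 sample had r = 0.976 to 0.994, against 0.842 to 0.941 for its other arrays. The test was two-sided, with lmFit and eBayes of limma (Benjamini-Hochberg over 3439 probes, threshold 0.05), and SEs are the moderated SEs of that fit. The WT and mak3 samples of a pair deviated together from their genotype means (r = 0.601, 0.556 and 0.738). By these values, not by any label, samples were compared within pairs. The main fit and the permutation test did not use the pairs, so the variation shared by a pair stays in their spread. A fit with the pair number as a block was the alternative. Its SEs were 0.13 for PSBY, 0.20 for PSB27 and 0.15 for PSBW. Other alternatives were the scaling, the floor, a pseudocount, a filter on dim probes, repeat readings as a random block or as separate samples, array weights, a running median over 51 probe numbers, and leaving out each array, sample or pair.

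Symbols were updated through gene identifiers. Of all probes 692 name 1 gene, 870 several, and 1877 are unnamed here. Coordinates are left out, as no build is named in the files. The named genes were the 3 members, the photosynthesis probes that name 1 gene, and for each member the 3 probes with the smallest profile distance; the CP29 probe was added after its values were seen. The members and lists were chosen with earlier results of these data known.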

Additional observations from a re-analysis of the deposited data

Results flagged for a closer look

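Among 20 groups of 6 arrays examined (10 probes in 2 genotypes), 1 held an array set apart from the rest. For PSBW in mak3, array 5 was at 4.80 on the quantile-normalized log2 scale and the nearest of the others at 4.57. This gap was 0.629 of the full spread, just past the limit that Dixon's test sets at the 95% level. As deposited, the same gap was 0.0647 of the range. Chance sets apart about 1 group in 20 when values are independent, which repeat readings are not.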

How the results depend on the processing

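Over 33 alternatives, PSB27 stayed above 0 and uncalled, from 0.10 to 0.70 on the log2 scale (smallest limma adjusted p = 0.409). The higher floor, the filter on dim probes, the replicate block alone and the fits on 12 arrays left each member's difference unchanged. These alternatives could move only the p-values, so they say nothing of the sign. PSBY stayed uncalled and changed sign in 4 of the 33: it was -0.054 with array weights, and leaving out arrays, samples or pairs gave -0.18 to 0.29. PSBW stayed uncalled and changed sign in 5 of the 33: it was 0.21 with a common median and 0.11 with the running median of neighbouring probes taken off, with or without the replicate block, and leave-outs gave -0.27 to 0.15. For all of these the cause was not tested. The number of probes past the threshold was 0 except with the 12 arrays as separate samples, where it was 24, none of them a member, because each sample then counts 2 times. The median of the photosynthesis lists was -0.24 with the values as deposited, where that of all probes was -0.19, and -0.27 to -0.038 with leave-outs. With the replicate block the adjusted p was 0.735 for PSBY, 0.463 for PSB27 and 0.838 for PSBW, so the pairing changed no call. Ranks moved by less than their spread over samples, except that PSBW in mak3 had 99.4% dimmer probes among those naming 1 gene. Without background signals, how far each probe lay above background is unknown.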
